A study of Mus musculus with 6 samples.

Results

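The genes described here encode the metallothioneins and the enzymes that make, use and recycle glutathione, together with 2 inducible detoxification enzymes. They were chosen by name, as all probe sets annotated to Mt1, Mt2, Gclc, Gclm, Gpx1, Gpx3, Gsr, Gss, Hmox1 or Nqo1. The rule found all 10 genes, read by 12 of the 12488 probe sets, among 8251 genes named by a probe set of their own. A probe set is a group of short oligonucleotides on the array, meant to read the transcript of a gene. Its value is a fluorescence intensity. The annotation names several genes for 396 of the 12488 probe sets. Whether the 12 probe sets also read RNA of other genes was not tested.

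The intensities come from total RNA of the whole pancreas of 6 male mice, 1 mouse per array. The 3 control mice were CFTR+/+ and the 3 cystic fibrosis mice, called CF, were labelled CFTR-/-; Cftr encodes the chloride and bicarbonate channel whose loss causes the human disease. Every mouse, controls included, was gastrin+/-, on a background of 95% black6 and 5% 129Sv. All were fed Peptamen, a liquid peptide diet, from day 10. The control mice were 57, 56 and 57 days old (replicates 1, 2 and 3) and the CF mice 57, 56 and 58 days old. The comparison asks which pancreatic transcripts differ in the absence of Cftr.

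Glutathione is a cysteine-containing tripeptide and the main small thiol of the cell. Glutamate-cysteine ligase joins its first amino acids in the rate-limiting step, glutathione synthetase completes it, peroxidases spend it on hydrogen peroxide and lipid peroxides, and glutathione reductase regenerates it with NADPH. Metallothioneins are small cysteine-rich proteins that bind zinc and copper, and are induced by metals, glucocorticoids and inflammatory cytokines. Several of these genes, among them Gclc, Gclm, Hmox1 and Nqo1, are textbook targets of the transcription factor NRF2. The exocrine pancreas handles much zinc, and acinar cells, which fold large amounts of disulfide-bonded enzymes, depend on glutathione.

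Markers of the labelled tissue were present. All 12 acinar markers on the array were bright enough to test, and their mean level lay between 15.9 and 16.4 on the log2 scale on every array. Array medians lay between 207.8 and 234.4 and array maxima between 92020.5 and 135426. With 3 arrays in each group, precision is set by the number of mice. No intensity was at 0. Cftr itself did not separate the groups: control values of its probe set were 318, 223 and 338.5 and CF values 467, 314 and 364 (adjusted p = 0.82, log2 difference 0.38 ± 0.29), higher by 0.55, 0.49 and 0.11 in the pairs of like replicate number. The labels do not say how the gene was disrupted, so whether this probe set can check the genotype is unknown, and CF stands for the arrays labelled CFTR-/- throughout. The 3′ to 5′ ratio of Gapdh, a sign of RNA integrity, was 1.45 in control replicate 2 and 0.72 to 0.87 on the other 5 arrays, while that of Actb was 1.74 to 2.16 in both groups together. Control replicate 1, the only array whose label names the entire gland, stood apart in fat cell genes: the summed intensity of 15 adipocyte markers was 53604 there, against 8044 and 23137 in the other controls and 6724 to 14606 in CF. Other marker lists leaned one way with 0 calls: 12 of 14 stellate cell and matrix genes (median log2 difference -0.58), 8 of 9 lymphocyte genes (-0.52) and 11 of 12 acinar genes (-0.17) were lower in CF, and 9 of 11 duct genes were higher (0.13). The part of these shifts in the values below was not tested.

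Mt2 and Mt1 are neighbours on mouse chromosome 8, with no other gene annotated between them. Metallothionein promoters carry metal response elements, short motifs bound by the zinc-sensing factor MTF-1, and the stretch before Mt2 is shown because Mt1 and Mt2 were the members whose CF values lay wholly above the controls. The 250 bases before the annotated start of Mt2 (RefSeq, GRCm38.p6, chr8:94172368-94172617, plus strand) are printed with matches to the metal response core (TGCACNC or TGCGCNC) and to the antioxidant response core bound by NRF2 (TGACNNNGC) in capitals, both strands searched.

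Mt2 promoter: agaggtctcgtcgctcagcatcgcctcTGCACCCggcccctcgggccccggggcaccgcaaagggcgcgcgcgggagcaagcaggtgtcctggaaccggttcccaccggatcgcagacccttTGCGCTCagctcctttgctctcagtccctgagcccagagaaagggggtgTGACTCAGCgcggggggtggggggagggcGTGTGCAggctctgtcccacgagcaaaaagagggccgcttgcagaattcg

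It held 3 metal response matches, beginning at positions -223, -128 and -50 from the start, and 1 antioxidant response match at -79, with no overlap among them. At least 1 metal response match was found in 21.4% of the 32851 annotated promoters of this length, and at least 2 in 5.17%. At least 1 antioxidant response match was found in 10.2%. Of the other members, 6 had a promoter in the same table. The windows of Mt1 and Gclm held 1 and 2 metal response matches. Of their 250 bases, 206 and 70 lie inside the annotated genes. The Mt1 count therefore cannot be set against that of Mt2 as a count before the start. Gclm also held 1 antioxidant response match, which overlaps a metal response match, and Gpx1, Gpx3, Gss and Nqo1 held none of either kind. These matches describe letters in a window and not binding.

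The 10 genes did not move as a group in the CF pancreas, and none of them passed the test. The test covered 11 of the 12 probe sets, at least 1 for each gene and all but a dim one of Nqo1, and 0 of the 11 had an adjusted p under 0.05 in limma (lowest adjusted p = 0.58). At an unadjusted p under 0.05 there were 2, the probe sets of Mt1 and Gclc, against 7.38% of all tested probe sets. That count was 0 with no filter, with no intensity trend or without CF replicate 2, 3 with the replicate block and 4 with array weights. Over all 7737 probe sets tested, 908 lay under it with the block and 738 with array weights, against 571 in the main fit. The test called 5 of all 7737 probe sets tested, or 0.0646%, and 10 with the replicate block described under the processing. With 1 probe set per gene, the brightest, 5 genes were higher and 5 lower in CF, with a median log2 difference of -0.05 against 0.00 over all probe sets tested. CF and control values did not overlap for 2 genes, both higher in CF, Mt1 and Mt2, while 7.37% of all tested probe sets lay so. For 0 member genes did all CF values lie below all control values, against 5.62% of all tested probe sets.

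**Figure D1:**
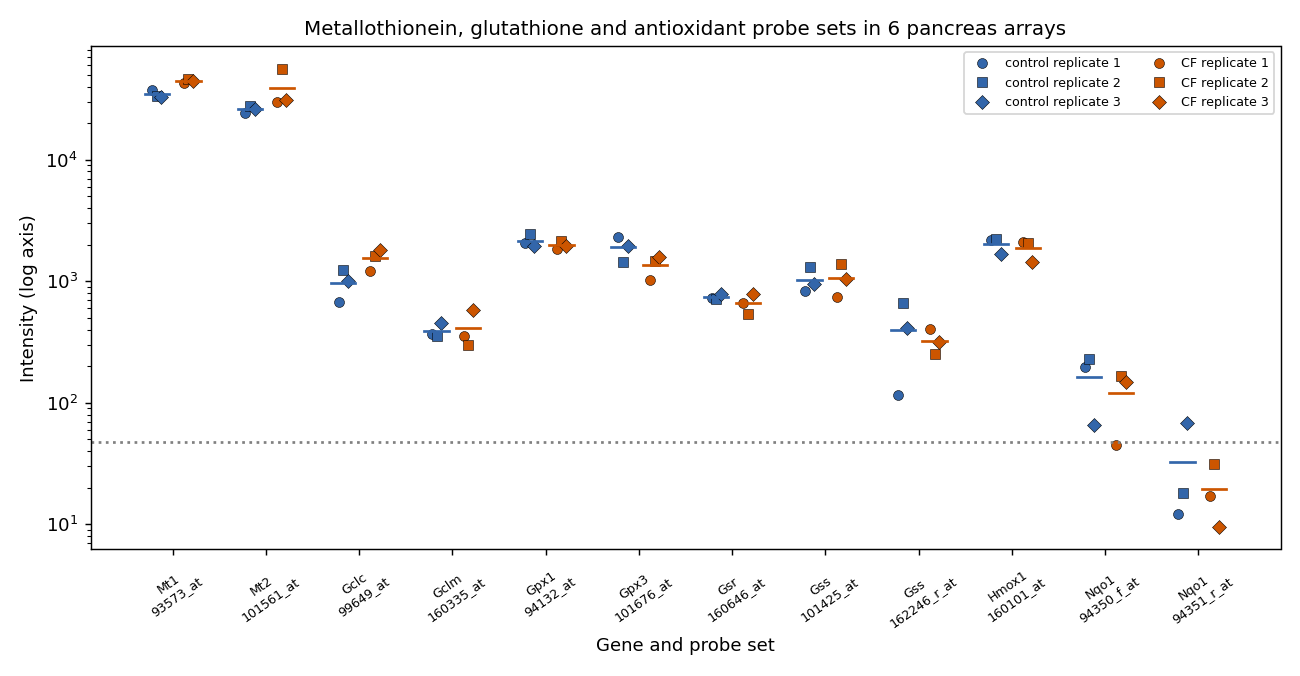
Intensity on a log axis of all 12 probe sets on each of the 6 arrays, controls in blue and CF in orange, with a different marker for each replicate. Horizontal bars are group means and the dotted line is the floor of 47.7 below which values were not distinguished; CF and control points separate only for Mt1 and Mt2.

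Mt1, the first of the classical metallothioneins, measured 37120.2, 33153 and 33037 in the controls, in the order of replicates 1 to 3 kept throughout, and 42940.5, 46538 and 44369 in CF. Every CF array lay above every control array. The means were 34437 ± 2325 in controls and 44616 ± 1811 in CF (intensity, SD, n = 3 per group). Taken from the mean log2 values, the difference was 1.30-fold with a 95% interval of 1.05 to 1.60 (log2 difference 0.37 ± 0.13 SE, adjusted p = 0.58). The interval is that of this gene alone, without adjustment for the 7737 tests. After quantile normalization the log2 difference of Mt1 was 0.20 ± 0.14 (unadjusted p = 0.19 in limma). With arrays scaled to one median it was 0.37 ± 0.18 (unadjusted p = 0.070 in limma). An interval clear of 0 therefore depended on the scaling.

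Mt2, its neighbour, measured 24121, 27397 and 26227 in controls and 29777, 55921.5 and 31195 in CF. The CF arrays were again all higher, but replicate 2 stood far above replicates 1 and 3. The means were 25915 ± 1661 and 38965 ± 14702. Taken from the mean log2 values, the difference was 1.44-fold with an interval of 0.992 to 2.10 (log2 difference 0.53 ± 0.24, adjusted p = 0.67). Without CF replicate 2 the log2 difference was 0.24. Between arrays of the same title suffix, Mt1 was higher in CF by 0.21, 0.49 and 0.43 and Mt2 by 0.30, 1.03 and 0.25 on the log2 scale; 17.8% of all tested probe sets were higher in CF in all 3 such pairs. Mt1 and Mt2 transcripts are similar in sequence, and cross-reading between their probe sets was not measured.

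Gclc, the catalytic subunit of glutamate-cysteine ligase, had the largest difference of the members. It measured 679, 1235 and 1012 in controls and 1204, 1629 and 1809 in CF, and the lowest CF array lay just below the highest control. Within the pairs Gclc was higher in CF by 0.83, 0.40 and 0.84 on the log2 scale. The means were 975 ± 279.6 and 1547 ± 311. Taken from the mean log2 values, the difference was 1.61-fold with an interval of 1.07 to 2.43 (log2 difference 0.69 ± 0.26, adjusted p = 0.62). The log2 difference was 0.45 without control replicate 1, the lowest array, and 0.88 without control replicate 2. Its partner Gclm, the modifier subunit that raises the activity of the ligase, did not show the same pattern. Gclm measured 367, 354 and 453 in controls and 352, 300.4 and 583 in CF, with both the lowest and the highest array in CF (log2 difference 0.02 ± 0.30, interval -0.67 to 0.71, adjusted p = 0.99).

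Gss, which encodes glutathione synthetase, was read by a pair of probe sets. On the brighter one it measured 829, 1302 and 944 in controls and 748, 1376 and 1054 in CF, with replicate 2 highest in each group (log2 difference 0.03 ± 0.27, interval -0.58 to 0.64, adjusted p = 0.99). The dimmer one ranged from 117 to 667 in controls and from 252 to 402 in CF (log2 difference -0.0024 ± 0.58). The groups overlapped on both, and the interval of the brighter one spans 0.67-fold to 1.56-fold.

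Gsr, glutathione reductase, measured 728, 714 and 787 in controls and 658, 534 and 787 in CF. CF replicates 1 and 2 lay below all controls and CF replicate 3 beside the highest control (log2 difference -0.19 ± 0.21, interval -0.67 to 0.29, adjusted p = 0.89). Gsr, Gpx1 and Hmox1 were the members lower in CF in all 3 pairs, as were 17.4% of all tested probe sets, although the third pair of Gsr differed by only -0.00037.

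Gpx1, the intracellular selenium-dependent glutathione peroxidase, differed least between arrays of the glutathione genes. It measured 2050.3, 2430.0 and 1945 in controls and 1837, 2144 and 1938 in CF. The groups overlapped, and the 95% interval of the ratio, 0.72-fold to 1.19-fold, was the narrowest after that of Mt1 (log2 difference -0.11 ± 0.16, adjusted p = 0.92).

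Gpx3, the secreted peroxidase found in plasma, measured 2334, 1433 and 1933 in controls and 1024, 1470.3 and 1582 in CF. It was the member with the lowest value of the difference, at -0.48 ± 0.24 on the log2 scale (0.72-fold, interval 0.49 to 1.05, adjusted p = 0.71), and its groups overlapped through control replicate 2. The highest Gpx3 array was control replicate 1 and the next control replicate 3, as for the summed adipocyte markers. The other arrays did not keep the order of that sum. Among CF arrays, replicate 1 had the lowest Gpx3 value but the highest sum (14606). CF replicates 2 and 3 had nearly equal sums, 6749 and 6724, with the higher Gpx3 value in replicate 3. The mean log2 of the tested markers put replicate 3 above replicate 2 (8.25 and 7.98). Scd1 alone gave 31651 of the sum in control replicate 1. Of 18 adipocyte markers 15 were on the array and 10 were tested, 9 of them lower in CF and 0 past the threshold, with a median log2 difference of -1.14. Adipoq, the fat cell hormone adiponectin, measured 5591, 187 and 1899 in the controls against 721, 54.2 and 58.2 in CF. Fat is among the tissues that express Gpx3, and the part of fat cell RNA in the Gpx3 values was not tested. In whole tissue, fewer cells of a type and less RNA per cell cannot be told apart. Without control replicate 1 the log2 difference of Gpx3 was -0.32, without control replicate 2 it was -0.67 and without CF replicate 1 it was -0.29.

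Hmox1, the inducible heme oxygenase that breaks heme down to biliverdin, measured 2171, 2214 and 1684 in controls and 2098, 2059 and 1449.7 in CF. The groups overlapped, replicate 3 was the lowest in each, and the log2 difference was -0.12 ± 0.20 (interval -0.59 to 0.34, adjusted p = 0.93). Macrophages that clear red cells are rich in heme oxygenase. Of 13 macrophage markers tested, 10 were lower in CF and 0 passed the threshold. The summed intensity of the 16 macrophage markers on the array ran from 12608 to 19725 in controls and from 12020.3 to 14475 in CF, and its part in the Hmox1 values was not tested.

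Nqo1, a quinone reductase and a common readout of NRF2 activity, was the dimmest member. Its brighter probe set measured 197, 230.3 and 65.5 in controls and 44.8, 167 and 148 in CF, with 1 CF array under the floor (log2 difference -0.44 ± 0.70, interval -2.04 to 1.15, adjusted p = 0.93). The spread within each group was as wide as the gap between them, and the interval was the widest of the members. The second Nqo1 probe set, with control values of 12.2, 18.0 and 68.3 and CF values of 17.1, 31.6 and 9.6, was under the floor on 5 of 6 arrays and was not tested.

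**Figure D2:**
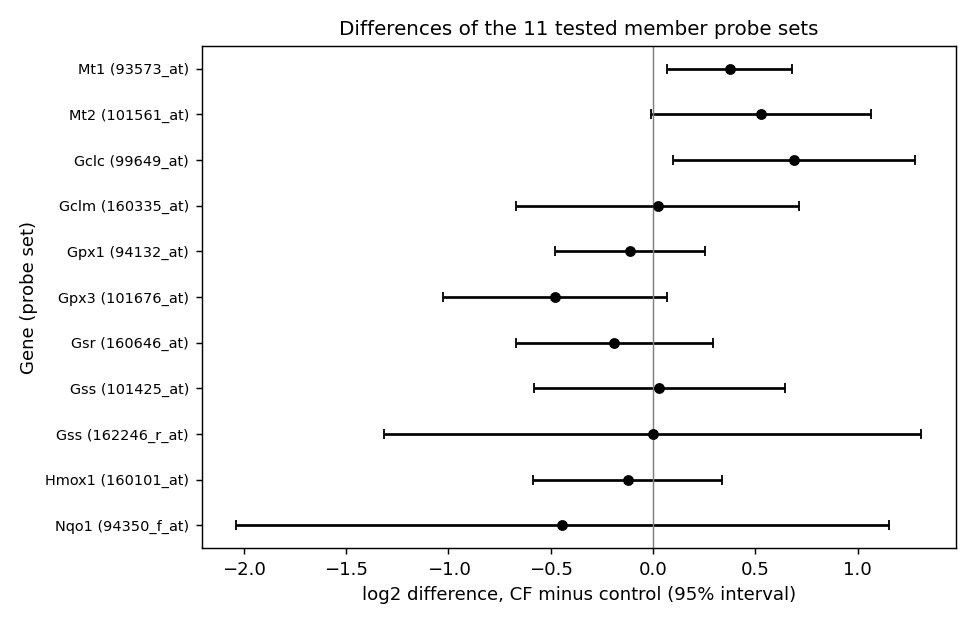
Log2 difference, CF minus control, of the 11 tested probe sets with 95% intervals from limma (3 arrays per group, without the replicate block, not adjusted for the number of tests). The intervals of Mt1 and Gclc lie above 0, that of Mt2 reaches just below it, and the other 8 span it.

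The members did not vary together from array to array. Among the 45 pairs of member genes, Pearson's r of the log2 values over the 6 arrays ran from -0.91 (Gclm and Hmox1) to 0.80 (Gclm and Gsr) with a median of 0.02, and 23 pairs were above 0. Mt1 and Mt2 had r = 0.71, Mt2 and Gclc 0.66, Mt1 and Gclc 0.60, and the ligase subunits Gclc and Gclm 0.22. These values are descriptions over 6 arrays that share a group difference and, by suffix, a pairing.

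**Figure D3:**
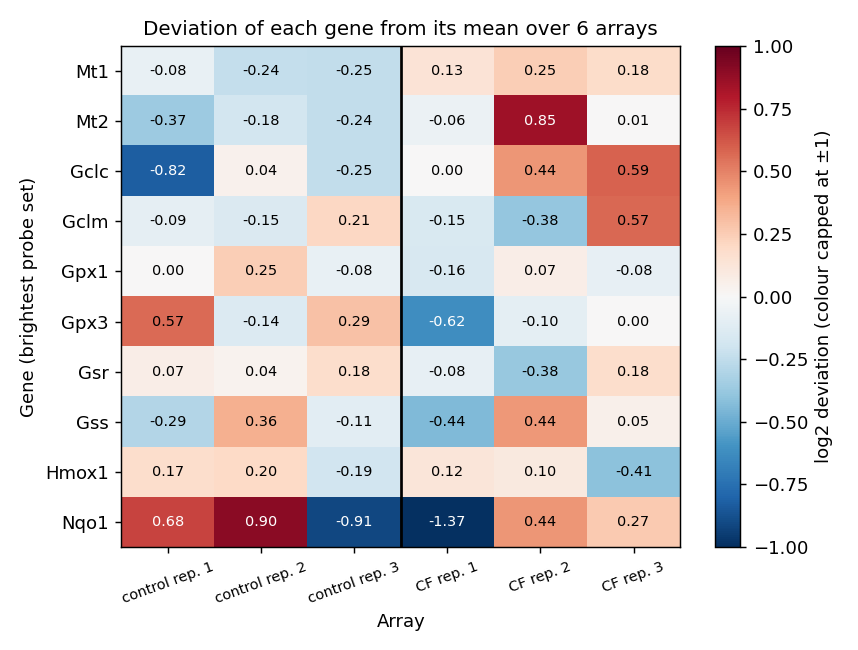
Deviation of each gene's brightest probe set from its own mean over the 6 arrays, on the log2 scale, with controls left of the line and CF right. Mt1 is below 0 in all controls and above 0 in all CF arrays, Mt2 peaks at 0.85 in CF replicate 2, and Nqo1 ranges from -1.37 to 0.90.

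The genes whose levels followed each member most closely over the 6 arrays had r of 0.96 to 1.00, and 0 of the 30 passed the threshold. They were picked for the highest r among all tested probe sets that name 1 other gene. For Mt1 they were Rpia, Mapk8ip3 and Hax1. For Mt2 they were Ahcy, Cdkn1a and Cyth3. The Cdkn1a probe set picked, with a log2 difference of 1.02, is not the brightest of that gene, which differed by 0.19 ± 0.19. For Gclc they were Clu, Pum3 and Tceal9. Gclm was closest to Capn7, Cggbp1 and Limk2, Gss to Gga1, Actb and Pde4b, and Gsr to Eif1ax, Ccz1 and Cox6c. Gpx1 was closest to Eda, Gne and Atp5d, Gpx3 to Pcmt1, U2af2 and Get3, Hmox1 to Cma2, Lhx6 and Cps1, and Nqo1 to Hspb8, Atp1b1 and Timd2. None of these 30 genes is another member.

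The surrounding pathways gave 0 calls in any of 8 lists of related genes, against 0.0646% of all tested probe sets, so the genes named from them are given by their values. The glutathione S-transferases, which attach glutathione to toxic compounds, had a median of -0.23 on the log2 scale, with 9 of 15 tested members lower and 6 higher. The median was -0.14 without control replicate 3 or without CF replicate 2. Gstm1, a transferase of the mu class, measured 13660, 11119 and 13221 in controls and 8386, 8564 and 8514 in CF. Every CF value lay below every control value (log2 difference -0.57 ± 0.14, adjusted p = 0.26), whereas its dimmer second probe set differed by -0.09 ± 0.33 with overlap. The related Gstm2 differed by -0.77 ± 0.33 and by 0.01 ± 0.23 on its second probe set, the membrane-bound Mgst3 by -0.64 ± 0.24 and the theta-class Gstt2 by 0.55 ± 0.21. Transferases of the mu class are similar in sequence, and their probe sets may share RNA. In 4 of the 15 the CF values lay wholly below and in 2 wholly above the controls, against 5.62% and 7.37% of all tested probe sets.

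Of 15 tested genes for cysteine supply and for glutathione breakdown and export, 8 were higher and 7 lower in CF (median log2 difference 0.16). The median was -0.018 without CF replicate 2, 0.067 without control replicate 1, 0.30 without CF replicate 1 and 0.38 with the filter at the 60th percentile. Abcc3, a transporter that exports organic anions and conjugates, measured 151, 206 and 546 in controls and 926, 990 and 841 in CF, with no overlap (log2 difference 1.83 ± 0.43, adjusted p = 0.25). Cdo1, which oxidizes cysteine and so removes it from glutathione synthesis, measured 684, 218 and 406 in controls and 152, 180 and 136 in CF (-1.34 ± 0.43, adjusted p = 0.51), again with no overlap. Glo1, the glyoxalase that uses glutathione to clear methylglyoxal, differed by 0.52 ± 0.22 and, on its second probe set, by 0.75 ± 0.20, with CF above control on every array for both. Slc3a2, the heavy chain of several amino acid transporters including the cystine importer, differed by 0.50 ± 0.25.

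Among 21 tested NRF2 regulators and other NRF2 targets, 10 were higher and 11 lower in CF, with a median of -0.05. Idh1, which makes NADPH in the cytosol, measured 561, 639 and 487 in controls and 749, 1026 and 1109 in CF (log2 difference 0.76 ± 0.23, adjusted p = 0.44). Aldh1a1, an aldehyde dehydrogenase, measured 1584, 1294 and 1721 in controls and 940.4, 931 and 1132 in CF (-0.61 ± 0.19, adjusted p = 0.47). Both lacked overlap on these probe sets, in opposite directions. The dimmer second probe set of Aldh1a1 differed by -0.40 ± 0.64 with overlap. The next in order, Ugdh and Taldo1, differed by -0.84 ± 0.35 and -0.49 ± 0.24. Leaving out 1 array moved the median between -0.12 (control replicate 2) and 0.070 (CF replicate 2).

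The other peroxidases, superoxide dismutases, catalase and peroxiredoxins, 10 tested, had a median of -0.06 with 4 higher and 6 lower, and the median was 0.069 without control replicate 3 and 0.027 without CF replicate 2. On its brighter probe set catalase, encoded by Cat, measured 2655, 4421 and 2759 in controls and 2261, 2450.5 and 2156 in CF, with no overlap (log2 difference -0.48 ± 0.21, adjusted p = 0.67). Its second probe set differed by -0.20 ± 0.28 with overlap. Sod2, the mitochondrial dismutase, and Sod1, the cytosolic one, differed by -0.17 ± 0.22 and 0.10 ± 0.20, and the peroxiredoxin Prdx2 by 0.23 ± 0.16 on its brighter and -0.31 ± 0.25 on its dimmer probe set. In the thioredoxin and glutaredoxin list, 6 of 9 tested genes were higher (median 0.11). That median was -0.013 without control replicate 2, 0.027 without CF replicate 3, 0.18 without control replicate 3, 0.19 without CF replicate 1 and 0.032 with array weights. The list was led by Txnrd3 at -0.56 ± 0.32, Srxn1 at -0.28 ± 0.18, Txnip at -0.35 ± 0.24 (0.04 ± 0.29 on its second probe set) and Glrx at 0.52 ± 0.38.

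**Figure D4:**
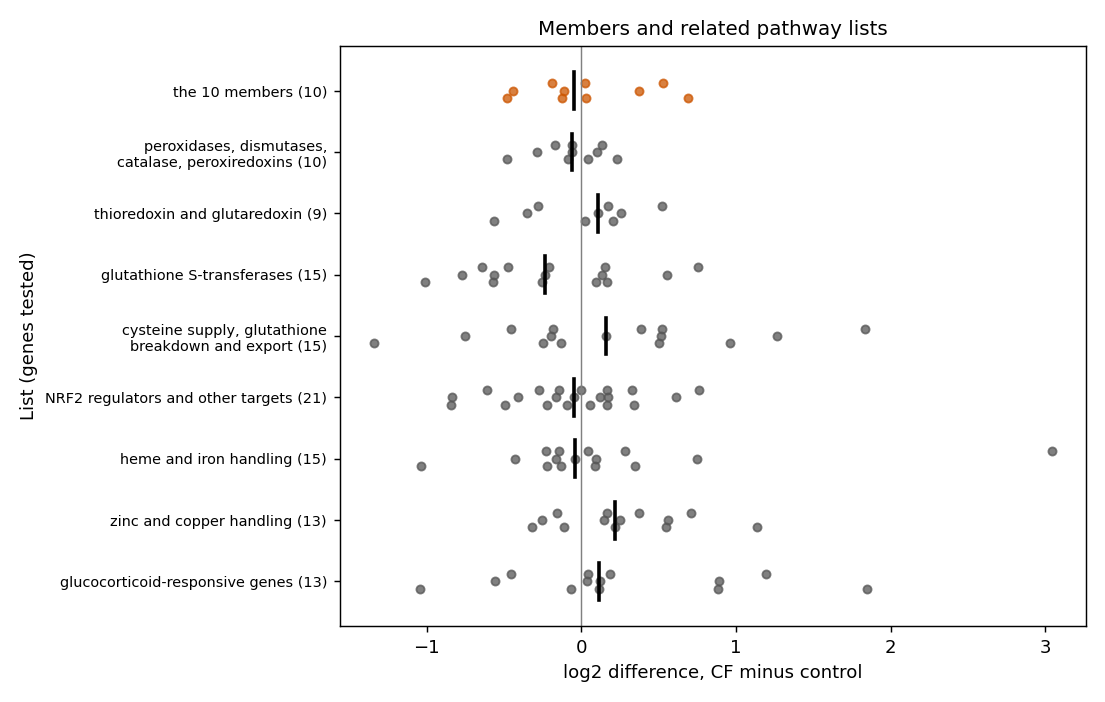
Log2 differences, CF minus control, of the 10 members (orange) and of the tested genes of 8 related lists (grey), 1 probe set per gene, with a black bar at each median. The medians lie between -0.23 and 0.22, and no point passed the threshold; the point at 3.04 is Cp.

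Of the zinc and copper handling genes, 9 of 13 tested were higher in CF, with a median of 0.22. The median was 0.12 without CF replicate 2, 0.13 without control replicate 1 and 0.35 without CF replicate 1 or without CF replicate 3. Its 4 genes of smallest p are all metal transporters: the zinc importers Slc39a8, Slc39a4 and Slc39a1 differed by 1.13 ± 0.43, 0.71 ± 0.28 and 0.55 ± 0.23, and the zinc exporter of the secretory pathway Slc30a5 by 0.37 ± 0.20 (adjusted p = 0.63 to 0.73). Slc39a8 measured 462.5, 313 and 634 in controls against 1247, 500.0 and 1556 in CF, and CF replicate 2 lay among the controls. Slc39a4 measured 1688, 1485 and 1000.4 in controls and 3166, 2017 and 1714 in CF, with no overlap, but its dimmer probe set differed by 0.12 ± 0.28. Slc39a1 also differed little on its dimmer probe set, at -0.04 ± 0.41. Mt3, another metallothionein, named after its values were seen, measured 1464, 2333 and 1665 in controls and 1937, 4898 and 1932 in CF, so CF replicate 2 was its highest array, as for Mt1 and Mt2. Mt4, a metallothionein too dim to test, lay the other way, at 241, 226 and 109 in controls against 104, 57.4 and 45.0 in CF, and was also named after its values were seen. The metal-sensing factor gene Mtf1 was too dim to test.

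In the heme and iron list, 7 of 15 tested genes were higher (median -0.04, and between -0.065 without control replicate 3 and 0.081 without CF replicate 2 on leaving out 1 array). Cp, the copper-carrying ferroxidase ceruloplasmin, measured 46.4, 19.7 and 37.9 in controls, all under the floor, and 631, 598 and 160.0 in CF (log2 difference 3.04 on the floored scale). Cp passed the filter only through the 3 CF arrays, and its controls had no spread after flooring. Its test is therefore not given as support. Hp, the hemoglobin-binding haptoglobin, had its highest value of 4166 in control replicate 1 and differed by -1.03 ± 0.45, and the heme synthesis genes Uros and Alad differed by 0.75 ± 0.44 and -0.23 ± 0.18. Glucocorticoid-responsive genes were included since metallothioneins respond to these hormones, and 9 of 13 tested were higher (median 0.11). Leaving out CF replicate 1, 2 or 3 gave medians of 0.072, -0.036 and 0.29. Fkbp5, a co-chaperone of the glucocorticoid receptor, measured 809, 678 and 257 in controls and 1486, 3537 and 1246 in CF, with CF replicate 2 highest (log2 difference 1.85 ± 0.50, adjusted p = 0.36). Cebpd, a transcription factor that responds to stress hormones and cytokines, differed by 0.89 ± 0.34 with no overlap (adjusted p = 0.63). Errfi1, an inhibitor of growth factor receptors, differed by 1.19 ± 0.68, with CF replicate 3 below all controls, and the phosphatase gene Dusp1 by -0.45 ± 0.38. The summed intensity of the list was 12947 to 17154 in controls, and 24092, 29321 and 11891 in CF replicates 1, 2 and 3. Errfi1 alone gave 8634 and 10391 of the sums in CF replicates 1 and 2, against 1784 to 2830 in controls. The sum is therefore not a measure of a rise across the list. The part of these genes in the metallothionein values was not tested.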

How the data were processed

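Pancreatic total RNA, prepared with TRIzol per the labels' protocols, was measured on 6 one-colour oligonucleotide arrays. The deposited values are linear intensities, 1 per probe set and array; the steps behind them were not given in the sources used here. They were kept as deposited, since array means trimmed by 2% at each end lay between 500.27 and 500.295. No value was at or below 0. The platform annotation named 1 gene symbol for 10855 of 12488 probe sets, several for 396 and none for 1237; 10839 matched RefSeq names of GRCm38.p6.

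The 66 control probe sets were left out, a floor was set at the 20th percentile of all arrays pooled (47.7), and values were taken to log2. A probe set was tested if at least 3 of 6 arrays exceeded the pooled 40th percentile (140.4). CF and control were compared over all 7737 such probe sets with limma 3.58.1 in R 4.3.3 (intensity trend, Benjamini-Hochberg, threshold 0.05). Fold values are on the floored log2 scale, which understates changes of dim genes. The fit was checked on simulated data.

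Groups follow the genotype in the descriptions. Replicates 1, 2 and 3 carry the title suffix none, B and P; after removal of group means, arrays correlated at 0.23 to 0.26 within a suffix and at -0.18 to -0.05 otherwise, which pairs them by suffix. Values are from the fit without the replicate block unless it is named.

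The members and all lists were chosen with earlier results of these data known. Named genes are all members, up to 4 genes of smallest p per list, up to 3 of highest r per member, and those said to be named later. A gene with several probe sets is represented by the one of highest mean, except for the genes of highest r, where any tested probe set was eligible. Alternatives changed the scaling, floor, filter, variance model, weights, block and arrays.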

Additional observations from a re-analysis of the deposited data

How the results depend on the processing

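No member probe set passed the threshold under any of the 16 alternatives, the lowest adjusted p being 0.25, for Gclc with the replicate block. With that block the SE was 0.17 for Mt2 and 0.16 for Gclc, against 0.24 and 0.26 without it. The SE of Gpx3 was 0.24 with and without the block. Mt1, Mt2, Gclc, Gpx1, Gpx3 and Gsr kept the direction of their difference in all 16. The log2 difference of Mt1 ran from 0.20 (quantile normalization) to 0.43, that of Mt2 from 0.24 to 0.69 and that of Gclc from 0.45 to 0.88. Of 175 member values, 15 turned sign, all of Gclm, Gss, Hmox1 or Nqo1. Gclm was at -0.075 with array weights and ran from -0.26 to 0.22 with each array left out. Gss ran likewise from -0.18 to 0.26 on its brighter probe set and from -0.72 to 0.53 on the dimmer one, which was at 0.032 with quantile normalization and 0.30 with array weights. Hmox1 ran from -0.25 to 0.0496 and Nqo1 from -1.01 to 0.13. The cause was not tested. Nqo1 gave no value with the filter at the 60th percentile, and taking the probe set of smallest p per gene chose the same ones.

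Over all probe sets the 5 calls became 10 with the replicate block or with the floor at the 40th percentile, 12 with array weights, 8 with arrays scaled to one median, 3 with no intensity trend and 0 in limma with no filter (773 of 12422 at an unadjusted p under 0.05), and 1 to 11 with each array left out. As an alternative chosen after seeing the data, the genes without overlap were counted with each array left out, where loss of an array can only add genes. Gclc joined Mt1 and Mt2 above the controls without control replicate 2 or CF replicate 1, when 13% and 12.2% of all tested probe sets lay so. Wholly below the controls were Gpx3 without control replicate 2 (11.7% of all), Hmox1 and Nqo1 without control replicate 3 (10.1%), Gpx1 without CF replicate 2 (8.66%), and Gclm and Gsr without CF replicate 3 (12.7%). The medians of the related lists moved with single arrays, as given beside them. Nqo1 exceeded the filter on 4 of 6 arrays with its brighter probe set and on 0 with the other.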
